A study of Mus musculus with 25 samples.

Results

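Of 100896 autosomal tiles of 1000 bp, 537 (0.532%) were less methylated in adult than in fetal haematopoietic stem cells (HSCs), from which every kind of blood cell descends and which also replace themselves. A tile was chosen when it held at least 3 CpGs with at least 5 reads in each of 6 libraries and when all 4 young and old libraries lay at least 20 percentage points below both fetal libraries. The level of a tile is the methylated reads over all reads of those CpGs, in percent. These 6 libraries chose the tiles, so their values are a description with no test. The question followed here is what the tiles did in the 19 libraries that had no part in the choice.

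Methylation was read by reduced representation bisulfite sequencing, which covers CpGs near restriction sites, in 25 libraries of HSCs from C57Bl/6 mice. The choosing libraries came from fetal liver at e14.5 (n = 2) and from bone marrow at 3.5 months (young, n = 2) and 25 months (old, n = 2). The 5-FU series came from bone marrow of mice labelled 3.5 months plus 6 months that had 0 (n = 3), 2 (n = 3) or 4 (n = 2) doses of 5-fluorouracil (5-FU), a drug that kills dividing cells. The transplanted libraries came from bone marrow after transplantation of 10 (n = 3), 50 (n = 1) or 500 (n = 1) young HSCs, or of 10 (n = 2), 50 (n = 1) or 500 (n = 3) old HSCs. The labels give neither sex, nor the time after transplantation, nor whether replicates were separate animals, so p-values measure only the spread between these libraries. The cell type is as labelled, since no marker was measured at the level of RNA or protein. The study concerns HSC methylation in development and after enforced division.

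Reads per library numbered 22835325 to 105187091, and the median CpG of a library was covered by 10 to 54. The 0-dose libraries stood apart: their deepest CpG had 63841 to 74120 reads, against at least 101345 in every other library, and 56.9% to 57.2% of their listed CpGs were on the plus strand, against 57.7% to 60.15% elsewhere. For the count of tiles called against them and for each named tile called against them, the value with the 2-dose libraries in their place is also given. Tiles that did not pass, the split by level and the medians of the called tiles have the 0-dose control alone.

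DNA methylation at CpGs is set by DNA methyltransferases and lost either passively through division or by oxidation through TET enzymes. CpG-dense promoters are mostly unmethylated in all cells, whereas enhancers, which lie away from starts, often change their methylation as cells mature. In blood, low methylation of enhancers commonly goes with binding of lineage transcription factors.

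The promoter sequences below show where the chosen tiles were and were not. Each is the 250 bases before a gene start, from RefSeq (GRCm38.p6), 5′ to 3′ on the gene's strand. Each was placed on the mm9 positions of the deposited CpGs by the spacing of its CpGs. Capitals mark the CpGs with at least 5 reads in all libraries counted, which were all 25 for Gata3 and the 6 choosing libraries for the others. Vwa7 (chr17:35153274-35153523, plus strand) is shown because its window lies in a chosen tile and differed as the tile did. The window of Thap7, the other one that shares CpGs with a chosen tile, did not, and its values are given after that of Vwa7. Cbfa2t3 (chr8:125202076-125202325), Hlf (chr11:90252232-90252481) and Gata3 (chr2:9800228-9800477), all on the minus strand, are shown because chosen tiles lay inside these genes and outside these windows.
Vwa7: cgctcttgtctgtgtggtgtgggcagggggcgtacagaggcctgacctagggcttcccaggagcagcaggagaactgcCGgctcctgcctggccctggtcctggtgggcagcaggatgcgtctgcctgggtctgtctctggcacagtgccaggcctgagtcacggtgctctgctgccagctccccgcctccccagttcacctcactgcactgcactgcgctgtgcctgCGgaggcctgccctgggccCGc
Cbfa2t3: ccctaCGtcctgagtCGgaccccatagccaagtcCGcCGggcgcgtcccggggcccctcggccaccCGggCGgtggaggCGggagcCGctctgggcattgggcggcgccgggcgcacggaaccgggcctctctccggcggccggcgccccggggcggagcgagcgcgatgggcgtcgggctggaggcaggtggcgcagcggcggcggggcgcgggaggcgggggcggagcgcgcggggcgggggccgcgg
Hlf: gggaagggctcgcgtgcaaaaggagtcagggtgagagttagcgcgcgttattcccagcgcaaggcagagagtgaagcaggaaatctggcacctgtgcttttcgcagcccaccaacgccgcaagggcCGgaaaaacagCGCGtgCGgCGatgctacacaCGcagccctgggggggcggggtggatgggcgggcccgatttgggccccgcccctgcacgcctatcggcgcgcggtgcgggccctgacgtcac
Gata3: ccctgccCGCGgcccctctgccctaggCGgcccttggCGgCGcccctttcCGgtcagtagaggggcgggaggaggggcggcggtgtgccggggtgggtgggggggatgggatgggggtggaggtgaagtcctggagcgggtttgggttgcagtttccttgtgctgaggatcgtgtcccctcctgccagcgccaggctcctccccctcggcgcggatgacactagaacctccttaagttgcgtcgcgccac

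Over the 3 capital CpGs of Vwa7, the fetal libraries read 81.2% (56 of 69 reads) and 78.2% (43 of 55). The young libraries read 11.3% (13 of 115) and 12.9% (18 of 140), and the old libraries 12% (12 of 100) and 26.8% (22 of 82). The Thap7 window read 0 in 5 of the 6 libraries and 0.649% (1 of 154 reads) in 1 old library over 6 CpGs, although its tile, chr16:17531001-17532000, held a mean of 32.2% in fetal and 4.32% in young and old libraries over 9 CpGs. The Cbfa2t3 window stayed between 0 and 2.19% in all 6 libraries over 8 CpGs. The Hlf window stayed between 0 and 1.33% over 6 CpGs. The Gata3 window lay between 0 and 3.30% in all 25 libraries over 6 CpGs. The windows of Prdm16 (4 CpGs, 0 to 4.35%) and Zfpm1 (5 CpGs, 0 to 3.12%) were as low in all 25 libraries. The promoters of these transcription factor genes were thus near 0 in fetal and adult cells alike, and the chosen tiles of the same genes lay elsewhere.

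Chosen tiles were seldom at the gene starts that could be located. Starts could be located for 7689 genes, each with at least 6 matched CpGs in its promoter sequence. CpG-poor promoters were thus left out, and CpG-dense ones are mostly unmethylated in all cells. How far this lowered the share of chosen tiles at starts was not tested. Within 1 kb of a located start lay 6 of 527 chosen tiles (1.14%), against 10.1% of 97753 tiles on the same chromosomes. Within 50 kb lay 256 chosen tiles (48.6%), against 38.6% of all tiles. The median distance to a located start was 52270 bp for chosen tiles and 90378 bp for all tiles. Starts not located here may lie nearer.

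They were also poor in CpGs. The median was 4 CpGs per tile, against 5 over all tiles. Only 7 chosen tiles (1.30%) held at least 10 CpGs, against 23.85% of all tiles. None held 30 or more, where 5918 of all tiles did. Depth differed less: the thinnest of the 6 libraries held a median of 88 reads in chosen tiles and 117 in all tiles. The part of CpG number and depth in the choice was not tested.

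The CpGs of the chosen tiles are described next, from the libraries that chose them, so that most must be lower by the choice itself. Of 2308 CpGs, 97.2% had a lower mean in the 4 adult than in the 2 fetal libraries, and in 320 of 537 tiles every CpG was at least 20 points lower. Neighbouring tiles are also described from the choosing libraries, and any that met the rule was left out, which removes wide gaps from the values. At the 109 measured tiles 1 kb away that were not chosen themselves, the median fetal minus adult difference was −0.24 points, against −0.71 over all tiles and 42.3 at the chosen tiles. All 4 adult libraries lay below both fetal libraries in 23.85% of those neighbours, against 8.66% of all tiles. The longest run of chosen tiles starting at most 2 kb apart held 2 tiles, and there were 12 such runs. Chosen tiles were on all 19 autosomes, from 0.285% of the tiles of chromosome 14 to 0.732% of chromosome 12.

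**Figure D1:**
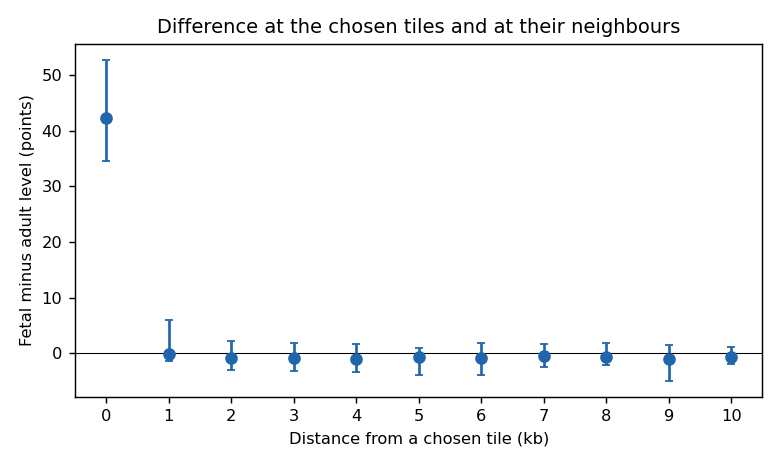
Fetal minus adult methylation level in percentage points (y axis) at the 537 chosen tiles (distance 0) and at tiles 1 to 10 kb away that were not chosen (x axis); points are medians and bars are quartiles. The median is 42.3 points at the chosen tiles and −0.24 points 1 kb away.

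The fetal level of the chosen tiles was 80% or more in 141, 50 to 80% in 272 and under 50% in 124. The adult mean was under 10% in 178, 10 to 30% in 206 and 30% or more in 153. The gap, which is the lowest fetal minus the highest adult library, had a median of 31.0 points and reached 83.3, and 81 tiles had a gap of at least 50. The median old minus young difference was −0.73 points, against 1.54 over all tiles.

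The tiles with the widest gaps, among those with at least 50 reads in each of the 25 libraries, had fetal levels of 65.7% to 99.2% and young and old levels of 1.68% to 29.5%. Values from here on use only the CpGs read in all 25 libraries unless stated. Gaps are still over the CpGs of the 6 choosing libraries, so the printed levels need not give the same gap. The tile at chr6:48518001-48519000, 33506 bp before the start of Zfp775, a zinc finger gene, had a gap of 74.2 points. It held 82.2% and 88.9% in the fetal, 6.90% and 8.01% in the young and 4.14% and 4.27% in the old libraries. In the 5-FU series it lay between 1.92% and 23.9% and after transplantation between 5.61% and 17.7%. The highest level outside the fetal group was thus 23.9%, at a tile picked for its wide gap.

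The tile at chr10:7559001-7560000 (gap 74.1), with no located start within 50 kb, held 75.9% and 78.8% in fetal HSCs and 2.27% to 8.37% in young and old. It stayed between 2.55% and 11.7% in the 5-FU series and between 0.913% and 6.20% after transplantation. The tile at chr12:85361001-85362000 (gap 60.95) held 65.7% and 84.0% in fetal HSCs, 0 to 2.52% in the 5-FU series and 2.03% to 7.93% after transplantation. Both kept low levels in all libraries that did not choose them.

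Beside the start of Numbl, an adaptor protein of the Notch pathway, the tile at chr7:28042001-28043000 (1280 bp before the start, gap 61.8) held 75.9% and 80.7% in fetal HSCs. It lay between 0 and 24.1% in the 5-FU series and between 7.26% and 24.5% after transplantation. The tile at chr14:26453001-26454000 lay 174829 bp past the start of Zmiz1, a transcriptional coactivator, within the length RefSeq gives for that gene. It held 82.1% and 91.2% in fetal HSCs, 8.33% to 58.4% in the 5-FU series and 13.2% to 37.1% after transplantation. Its level thus varied more between libraries than that of the Numbl tile.

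Among the other 5 widest gaps, chr8:122794001-122795000, chr11:67481001-67482000 and chr6:113884001-113885000 stayed at or under 34.95% in every library of the 5-FU series and at or under 28.0% after transplantation. At chr13:93833001-93834000 the 5-FU series lay between 20.5% and 54.05%, above the young and old libraries (11.7% to 18.5%), and the transplanted libraries between 7.51% and 27.7%. At chr1:72646001-72647000 the 0-dose libraries (60.5%, 66.3% and 81.3%) lay nearer to the fetal (95.9% and 98.6%) than to the young and old libraries (13.8% to 25.0%). The whole 5-FU series ran from 8.70% to 81.3% there, and the transplanted libraries from 2.53% to 61.4%.

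At the edge of the rule the 3 tiles just inside had gaps of 20.1, 20.1 and 20.2 points, and the 3 just outside 19.9, 19.6 and 19.6 points. Just inside, chr11:103934001-103935000 held 50.0% and 22.3% in the 2 fetal libraries and 8.08% to 11.6% in young and old. These levels are over 8 CpGs, where the rule used 13, and over the 8 the tile would not meet the rule. Just outside, chr4:133181001-133182000 held 48.1% and 53.0% in fetal, 20.8% to 26.9% in young and old, and 18.1% to 32.7% in transplanted libraries.

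Levels in all 25 libraries were had for 238 chosen tiles, and the other 299 lacked enough covered CpGs in at least 1 library. Over these 238, the median level was 67.1% and 68.2% in the fetal libraries and 12.8% to 17.8% in young and old, which chose them. In the libraries that did not choose, the median was 23.0% to 25.4% with 0 doses, 22.2% to 23.85% with 2 doses and 20.2% and 21.8% with 4 doses. After transplantation it was 14.2% to 17.5% from 10 young, 16.75% and 18.6% from 10 old and 12.3% to 21.3% from 500 old cells. The single libraries from 50 young, 500 young and 50 old cells read 14.9%, 11.2% and 16.5%. The medians of all 19 libraries lay below both fetal libraries. The fetal libraries chose the tiles, so nothing is read from that contrast. Over all 53794 tiles the median was 72.7% to 78.1% in the 5-FU series and 63.4% to 71.3% after transplantation, so transplanted libraries were also lower there.

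**Figure D2:**
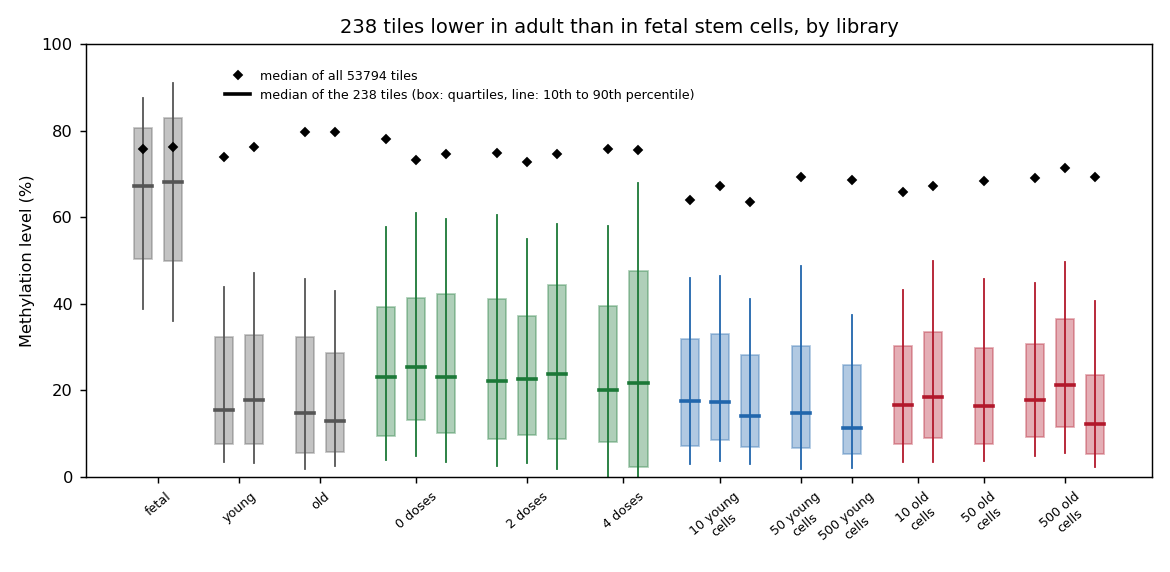
Methylation level in percent (y axis) of the 238 chosen tiles with a level in all 25 libraries, by library and group (x axis); thick lines are medians, boxes quartiles, thin lines the 10th to 90th percentile, and diamonds the median of all 53794 tiles. Fetal libraries have medians of 67.1% and 68.2%, and every other library is at or under 25.4%.

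Tile by tile, 98 of the 238 stayed at least 20 points below both fetal libraries in each of the 19 libraries. Over all tiles 0.204% did so (110 tiles, the 98 included), and since the fetal libraries chose the tiles, nothing is read from the contrast. For the 0-dose libraries alone the number was 149 (0.39% of all tiles), for the whole 5-FU series 108 (0.227%) and for the 11 transplanted libraries 166 (0.679%). Over the CpGs read in all 25 libraries, the choosing libraries fell short of 238 too. Taken singly, each young library gave 230 and each old library 232. No chosen tile was at or above its lowest fetal level in all 11 transplanted libraries or in all 8 of the 5-FU series. In at least 1 of the 19 libraries, 41 tiles reached it. Under 10% in all 19 were 12 tiles.

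The level of a chosen tile varied between libraries. The median range over the 19 libraries was 33.0 points, against 14.8 over all tiles and 34.3 over the 4569 tiles whose mean over the 19 lay between 10 and 60%. A range over 50 points was seen in 51 chosen tiles (21.4%) and in 20% of those 4569 tiles. These values were close, but the chosen tiles were not limited to that mean and the 4569 include chosen tiles. The sets were thus not matched by level.

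Several genes of blood transcription factors held chosen tiles within their length. Of the 30 listed factors, 12 had a located start, and 5 of these (41.7%) had a chosen tile in the gene or within 10 kb of it: Cbfa2t3, Gata3, Hlf, Prdm16 and Zfpm1. Over all located protein-coding genes this held for 219 of 6524 (3.36%). Gene length was not matched, and the list was made with results of these data known, so no more is read from the share. The other 6 lists had none: 4 myeloid, 4 lymphoid, 1 erythroid or platelet, 4 fetal programme, 9 adult stem cell or immune and 7 methylation enzyme genes were located.

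Cbfa2t3 encodes a corepressor (ETO2) that holds blood progenitors undifferentiated. Its tile at chr8:125198001-125199000, 3575 bp past the start, held 66.1% and 76.6% in fetal, 25.8% and 19.4% in young and 20.9% and 13.7% in old libraries. The 0-dose libraries read 29.8%, 60.9% and 60%, the 2-dose libraries 39.4%, 50.7% and 58.4%, and the 4-dose libraries 43.95% and 58.0%. After transplantation it read 85.8%, 67.0% and 79.9% from 10 young, 79.5% and 72.4% from 10 old, and 73.7%, 77.3% and 63.4% from 500 old cells. The lone library from 500 young cells was lowest at 57.1% (95% Wilson interval 49.2% to 64.7%, counting error only). With 10 young cells the level was higher than with 0 doses by 28.9 points over the CpGs of that fit (quasi-binomial test, adjusted p = 0.0139). Against 2 doses the difference was 28.3 points (adjusted p = 0.0162). Without 0-dose replicate 1 it was 19.2 points and no longer passed (adjusted p = 0.0692). The transplanted libraries lay around the fetal levels, above all young and old libraries.

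A second Cbfa2t3 tile, chr8:125200001-125201000, lay 1575 bp past the start. It held 80.5% ± 17.3 (SD, n = 2) in fetal, 37.0% ± 2.5 (n = 2) in young, 37.2% ± 3.7 (n = 3) in 0-dose and 54.6% ± 5.8 (n = 3) in 10 young cell libraries. The difference between the last of these groups and 0 doses was 15.8 points over the CpGs of that fit and did not pass (adjusted p = 0.0503).

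Hlf encodes a transcription factor used by HSCs to keep renewing. Its tile at chr11:90209001-90210000, 42731 bp past the start and within the gene's length, held 72.4% and 68.3% in fetal, 18.04% and 26.6% in young and 27.3% and 29.3% in old libraries. The 0-dose libraries read 37.5%, 20% and 29.1%, the 2-dose libraries 38.6%, 42.3% and 39.5%, and the 4-dose libraries 15.9% and 34.2%. From 10 young cells it read 55.2%, 62.1% and 50.0%, from 10 old cells 50.9% and 60.5%, and from 500 old cells 56.5%, 56.6% and 47.7%. Libraries from 50 young (65.4%, Wilson interval 60.6% to 69.9%) and 500 young cells (36.6%, 32.1% to 41.3%) were the extremes. All 3 libraries from 10 young cells were above all 3 with 0 doses, by 26.9 points (adjusted p = 0.00503). Against 2 doses the difference was 15.7 points and did not pass (adjusted p = 0.0807). Another Hlf tile, 9731 bp past the start, held 90.2% ± 3.7 in fetal (n = 2), 63.1% ± 12.2 in 0-dose (n = 3) and 72.2% ± 7.7 in 10 young cell libraries (n = 3), a difference that did not pass (adjusted p = 0.261).

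Gata3 encodes a factor of T cell and innate lymphoid development that is also expressed in HSCs. Those of its 3 chosen tiles that could be followed did not move alike. The tile at chr2:9773001-9774000, 26727 bp past the start, held 86.9% and 84.3% in fetal, 10.4% and 13.1% in young and 4.85% and 10.0% in old libraries. It read 11.8%, 14.49% and 16.4% with 0 doses, and 44.9%, 55.1% and 37.3% from 10 young cells, over 36 to 268 reads per library. The difference was 31.5 points (adjusted p = 0.00975), all 3 above all 3. Against 2 doses, where the libraries read 16.7%, 30.1% and 11.8%, the difference was 13.1 points over the CpGs of that other fit, which are not those of the levels printed here, and did not pass (adjusted p = 0.259).

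The Gata3 tile 9727 bp past the start went the other way. Over the CpGs of the 0-dose and transplanted libraries it held 27.4% ± 4.9 with 0 doses (n = 3) and 5.76% ± 3.48 from 10 young cells (n = 3), lower by 21.7 points (adjusted p = 0.00925). Against 2 doses the difference was −18.4 points (adjusted p = 0.0187). The transplanted libraries ran from 3.70% to 14.6%, all below the 0-dose libraries (22.7% to 32.4%). The third tile, 8727 bp past the start, held 66.7% ± 17.7 in fetal (n = 2), 4.57% ± 2.20 in young (n = 2) and 0 in both old libraries, and could not be followed.

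Prdm16 encodes a factor needed to maintain HSCs, and Zfpm1 (FOG1) a cofactor of GATA factors in red cells and platelets. Of 3 Prdm16 tiles, 50482 to 117482 bp past the start, 1 could be tested after transplantation. It held 73.6% ± 6.0 in fetal (n = 2), 56.1% ± 7.4 with 0 doses (n = 3) and 67.4% ± 11.4 from 10 young cells (n = 3), which did not pass (adjusted p = 0.356). Young libraries held 39.45% ± 1.4 (n = 2) and old libraries 24.0% ± 3.4 (n = 2). From 10 old cells it held 75.8% ± 4.8 (n = 2) and from 500 old cells 69.1% ± 15.2 (n = 3). The single libraries from 50 young, 500 young and 50 old cells read 73.2%, 45.65% and 80.5%. The Zfpm1 tile, 27459 bp past the start, held 38.6% ± 1.1 in fetal (n = 2), 19.8% ± 2.3 with 0 doses (n = 3) and 17.8% ± 4.5 from 10 young cells (n = 3), over the CpGs of that fit (adjusted p = 0.808).

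**Figure D3:**
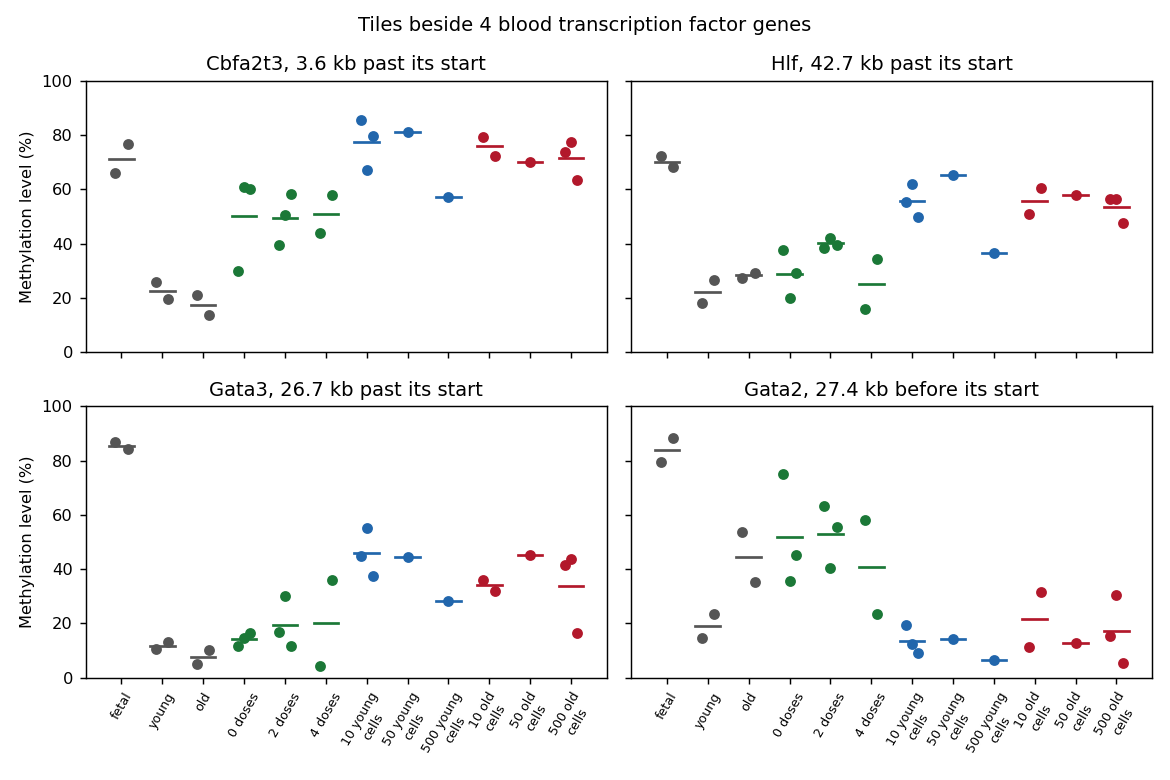
Methylation level in percent (y axis) of 4 chosen tiles by group (x axis), 1 point per library with the group mean as a line. For Cbfa2t3, Hlf and Gata3 the tested tile with the largest difference after transplantation is shown. The other tested Gata3 tile was lower after transplantation, and those of Cbfa2t3 and Hlf did not pass. The panels are thus not typical of the called tiles, most of which were lower. At Cbfa2t3 the transplanted libraries lie between 57.1% and 85.8%, at Hlf between 36.6% and 65.4% and at Gata3 between 16.3% and 55.1%, while at Gata2 they lie between 5.45% and 31.6%.

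Chosen tiles differed between the libraries from 10 young cells and those with 0 doses, and most that were called were lower from 10 young cells. Of 375 that could be tested against the 0-dose libraries, 81 (21.6%) were lower and 10 (2.67%) higher, at an adjusted p under 0.05 and a difference of at least 10 points. Over all 71755 tiles 8.54% were lower and 0.328% higher. The median difference was −5.96 points over the chosen tiles and −3.47 over all tiles, and 69.6% of chosen and 82.6% of all tiles were lower by any amount. Over the 238 followed tiles the medians were 14.2% to 17.5% from 10 young cells and 23.0% to 25.4% with 0 doses. The young libraries, which chose the tiles, had 15.5% and 17.8%. Whether the difference came from the transplanted or the 0-dose libraries was not tested. With 2 doses as the control, 50 of 449 were lower and 4 higher, against 4.81% and 0.119% of 82082 tiles. The count of 91 was 53 without 0-dose replicate 1, where over all tiles 6128 lower and 235 higher became 2276 and 107. It was 60 without 10 young cells replicate 3, where all tiles gave 3410 lower and 161 higher.

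The share called moved with the level of the tile, which a floor at 0 limits. Of chosen tiles with a young and old mean under 10%, 7 of 132 (5.30%) were lower and 4 (3.03%) higher, against 0.379% and 0.137% of all tiles in that class. At 10 to 30%, 37 of 138 (26.8%) were lower and 5 (3.62%) higher, against 10.7% and 3.10%. At 30% or more, 37 of 105 (35.2%) were lower and 1 (0.952%) higher, against 12.4% and 0.247%. The median chosen tile in the last class read 45.9% with 0 doses and 32.1% from 10 young cells, and in the first class 8.68% and 7.54%. With 0 doses the median of all tiles was 88.8% in the last class and 1.13% in the first. At 10 to 30% it was 19.2%, against 27.6% for chosen tiles. The classes thus do not match chosen and all tiles by level.

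The 81 tiles that were lower had a median of 41.2% with 0 doses and 15.6% from 10 young cells, where young libraries held 28.8% and old libraries 24.3%. Libraries from 10 and 500 old cells held 19.6% and 18.6% there. The 10 that were higher had 26.7% with 0 doses and 48.7% from 10 young cells, where fetal libraries held 64.9%, young 19.4% and old 13.5%. Libraries from 10 old cells (45.6%) and from 500 old cells (35.95%) were high there too. The calls used the 0-dose and 10 young cell values, so the contrast between the medians of these 2 groups follows from the call.

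**Figure D4:**
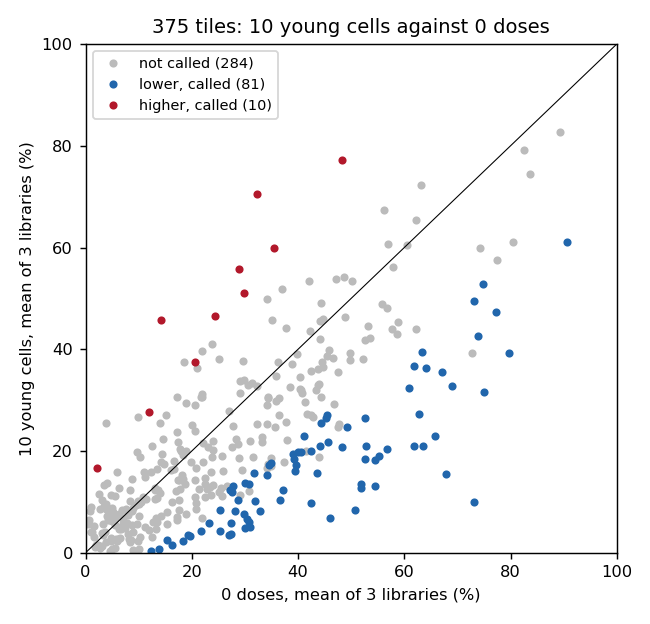
Mean level in percent over 3 libraries from 10 young cells (y axis) against the mean over 3 libraries with 0 doses (x axis) for the 375 chosen tiles tested, with the line of equal levels. The 81 tiles called lower are blue, the 10 called higher red and the rest grey.

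Gata2, a factor that HSCs need to form and survive, had a chosen tile 27385 bp before its start, at chr6:88116001-88117000. Fetal libraries read 79.4% and 88.5%, young 14.47% and 23.6% and old 53.8% and 35.3%. With 0 doses it read 75.2%, 35.5% and 45.1%, and from 10 young cells 19.3%, 12.2% and 9.12%. It was lower by 38.4 points (adjusted p = 0.0112), all 3 below all 3, and the transplanted libraries together ran from 5.45% to 31.6%. Against 2 doses the difference was −39.55 points (adjusted p = 0.0154). Without 0-dose replicate 1 the difference of −26.75 points did not pass (adjusted p = 0.0565).

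The tile at chr1:72646001-72647000 read 8.05%, 22.3% and 2.53% from 10 young cells, lower than with 0 doses by 52.3 points over the CpGs of that fit (adjusted p = 0.00266). Transplanted libraries were not all low at this tile, since a library from 10 old cells read 61.4%. The 5-FU series was not all high, since a 4-dose library read 8.70%. At chr16:31598001-31599000 the levels were 84.7%, 79.1% and 75.3% with 0 doses and 50.2%, 30.3% and 37.5% from 10 young cells, lower by 40.4 points (adjusted p = 0.00246). Young libraries held 66.4% and 66.5% there, so the transplanted libraries lay below the young ones as well. Against 2 doses both passed, with −44.98 points at the first (adjusted p = 0.0213) and −31.7 points at the second (adjusted p = 0.0361).

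At chr5:123832001-123833000, 12307 bp before the start of Mlxip, a glucose-responsive transcription factor gene, the 0-dose libraries read 52.1%, 64.8% and 46.7%. Those from 10 young cells read 12.1%, 24.4% and 17.9%, lower by 36.4 points (adjusted p = 0.00224). The 2-dose libraries read 15.3%, 28.5% and 27.3%, and against them the difference was −5.55 points (adjusted p = 0.518). Outside the fetal group, the 0-dose libraries were the highest at this tile.

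A depth difference stood beside the loss at chr11:103934001-103935000. There the 0-dose libraries read 48.6% to 56.0% over 132 to 241 reads, and those from 10 young cells 15.9% to 19.6% over 2964 to 3813 reads, a difference of −41.0 points over the CpGs of that fit (adjusted p = 0.000395). With CpGs over 500 reads left out it was 0.13 points (adjusted p = 0.985), and against 2 doses it was 12.9 points higher (adjusted p = 0.0371). Depth was unequal in the choosing libraries too, with 704 and 768 reads in fetal, 8278 and 10008 in young and 5146 and 2251 in old libraries. The part of depth in the choice of this tile was not tested. The 2 smaller gains named by the rule were at chr15:84041001-84042000, 18830 bp past the start of Samm50, which helps insert proteins into the outer mitochondrial membrane (15.6 points, adjusted p = 0.0252), and at chr5:106221001-106222000, within Lrrc8d, a subunit of a volume-regulated anion channel (16.9 points, adjusted p = 0.0473). The gain at Samm50 no longer passed under 6 alternatives, which were without 0-dose replicate 1 (12.9 points), without 0-dose replicate 3 (16.1 points), without 10 young cells replicate 3 (12.9 points), against 2 doses (16.1 points), with only the 2 groups compared (15.6 points) and with a library offset removed (10.07 points). That at Lrrc8d was −3.43 points against 2 doses, and it passed without 0-dose replicate 2 but not without any of the other 5 libraries of these 2 groups, nor without any of the 5 libraries from 10 or 500 old cells.

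5-FU gave no call among the chosen tiles. For 2 doses against 0 doses, 0 of 246 passed the quasi-binomial test, against 0% higher and 0.00175% lower (1 tile) of 57000 tiles, and limma also gave 0. At an unadjusted p under 0.05 there were 20 chosen tiles (8.13%) and 1910 of all tiles (3.35%). The median difference was −1.28 points, against −0.51 over all tiles. For 4 doses the quasi-binomial test called 0 of 246, against 0% higher and 0% lower of all tiles. At an unadjusted p under 0.05 there were 44 chosen tiles (17.9%) and 3605 of all tiles (6.325%), and the median difference was −2.20 points against −0.01. Limma called 1 chosen tile, chr11:103934001-103935000, the tile with unequal depth (52.5% with 0 and 7.71% with 4 doses, limma adjusted p = 0.0483). That a tile did not pass does not show that its levels were the same.

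Neither donor age after transplantation of 10 cells nor the number of old cells gave a call. The number of young cells was not tested, since 50 and 500 young cells had 1 library each. For 10 old against 10 young cells, 0 of 375 chosen tiles passed, against 0% of all tiles in either direction, and limma gave 0. At an unadjusted p under 0.05 there were 21 chosen (5.60%) and 1649 of all tiles (2.30%), with a median difference of 1.02 points against 0.02. For 10 against 500 old cells, 0 of 375 passed, against 0% of all tiles in either direction, and limma gave 0. At an unadjusted p under 0.05 there were 10 chosen (2.67%) and 2556 of all tiles (3.56%), with a median difference of 0.33 points against −1.03.

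In 5 of the 238 followed tiles every transplanted library lay below every library of the 5-FU series (2.10%, against 1.53% of all tiles), and in 0 tiles every one lay above (against 0.242%).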

How the data were processed

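RRBS was measured in 25 HSC libraries. Per the labels' protocols, a published RRBS protocol was adjusted for small cell numbers. Each deposited file lists the methylated over total reads of each CpG. Positions are mm9, a build named in the submitters' processing notes. The deposited score is the methylated share scaled to 1000 and rounded down by the authors, and it was not used. For aligner, caller and duplicate handling, nothing was given in the sources used here. Reads without molecular identifiers are not independent molecules, so intervals cover counting error only.

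Methylated and total reads were summed over CpGs with at least 5 reads in the choosing libraries and all libraries of a fit, in tiles of at least 3 CpGs on the 19 autosomes. Separate fits of the 5-FU series (8 libraries) and of the 0-dose with the transplanted libraries (14), used a quasi-binomial model of group means with Williams' weights. Groups of 1 library entered the second fit and add no residual degrees of freedom. The dispersion was moderated as limma does, with a depth trend, held at 1 or more, and tested by F with Benjamini-Hochberg adjustment over all tiles. Its prior came from tiles of 10 to 90%, a form set after simulated reads showed few changes recovered with a prior from all tiles, and after calls of the real data under that form had been seen. The fits were tested on simulated reads.

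The tiles, gene lists and tests were chosen with earlier results of these data known. Named tiles, among those with at least 50 reads in every library, are the 10 widest gaps, up to 5 gains and 5 losses per comparison whose groups do not overlap, 3 tiles on each side of the threshold, the longest run (12 runs tied, so none is named), and tiles at listed genes. Genes were to be named from an mm9 annotation. None was used here, so 31396 RefSeq promoter sequences were sought on the listed CpGs by CpG spacing (at least 6 matched, a lead of 3 over the next place, no listed CpG elsewhere). Of 8683 placed, 8642 were in the reference order and kept. A start is named within 50 kb of a tile or where RefSeq's gene length reaches the tile; exon and intron are not given. Alternatives are in the closing section. Analyses used Python 3.11.15, numpy 2.4.6, scipy 1.17.1, pandas 2.3.3, matplotlib 3.10.9, R 4.3.3 and limma 3.58.1.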

Additional observations from a re-analysis of the deposited data

How the results depend on the processing

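The choice of tiles moved with the rule. It gave 287 tiles at a gap of 30 points, 163 with at least 5 CpGs per tile, 417 at 10 reads per CpG and 536 with CpGs over 500 reads left out. Leaving out 1 of the 6 choosing libraries gave 584 to 794, of which 534 to 537 were among the 537. The 91 chosen tiles called for 10 young cells against 0 doses became 54 at 10 reads per CpG, 54 with only the 2 groups compared and 178 with a library offset removed. Over all tiles, 6128 lower became 2463 (of 48775 tested), 2187 and 22865, so the counts over all tiles moved too. That offset rests on 21 CpG-dense tiles, where the 0-dose libraries read 30.2% to 34.7% and the transplanted libraries 35.6% to 46.8%. With 2 doses as the control, chosen after seeing the data, the count was 54 (3947 lower over all tiles). Limma gave 86, CpGs over 500 reads left out 90, and the prior from all tiles, also added after seeing the data, 73. Leaving out 1 library gave 53 to 92. The cause of these changes was not tested, other than fewer tiles being tested at 10 reads per CpG (254 of the chosen ones) and fewer libraries in the others.

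For the comparisons by 5-FU dose, donor age and number of old cells the count was 0 under every alternative, each library left out included (0 to 0), except limma for 4 doses, which called 1. The difference at chr5:106221001-106222000 reversed to −3.43 points with 2 doses as the control, and that at chr11:103934001-103935000 to 0.13 points with CpGs over 500 reads left out and to 12.9 points with 2 doses as the control. Deviations of same-numbered libraries of different groups had correlations of −0.07 to 0.137 (over 0.1 in 2 of 15 pairs). In 7 pairs of the 5-FU series they were −0.02 to 0.02. With no differently numbered pairs beside them, these values cannot tell whether a shared number pairs libraries. With the replicate number as a block the count was 92 for 10 young cells against 0 doses and 0 for the other comparisons. Depth limits the tiles followed in all 25 libraries to 238 of 537.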

Other observations

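The following tiles were picked after their values were seen, and all their values come from the libraries that chose them. The 2 widest gaps of all 537 tiles lay in 1 stretch of chromosome 8, 1 of them within the length RefSeq gives for Gse1. At chr8:122906001-122907000, with no located start within 50 kb, the mean level was 89.5% in fetal and 3.10% in young and old libraries (gap 83.3 points). At chr8:123168001-123169000, 107191 bp past a start of Gse1, it was 90.6% and 5.71% (gap 78.7 points). A tile 5734 bp past a start of Gse1 held 44.8% and 5.66%. Jdp2, a repressor of AP-1 target genes, had 3 chosen tiles nearest to its start. The widest, 27555 bp before a start, held 80.5% in fetal and 13.1% in young and old libraries. Msi2, an RNA-binding protein that HSCs use for renewal, also had 3, and the one 4043 bp past the start held 92.7% and 63.1%. None of these tiles but that 5734 bp past a Gse1 start had a level in all 25 libraries.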
